A study of Homo sapiens with 11 samples.

Results

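The comparison described here sets all 7 libraries of 769-P cells that received an siRNA against AKR1A1 beside all 4 libraries that received a control siRNA, so that every one of the 11 libraries of the series takes part. 769-P is an established line of human clear-cell renal carcinoma, and all cells of the series were of this 1 line. The control libraries (siSCR) carry the genotype label wild-type. The knockdown libraries, 3 with a first siRNA (si1) and 4 with a second (si2), carry the label AKR1A1-/-, although the labels describe transfection with siRNA and no gene deletion. Transfection used RNAiMAX, a lipid reagent, in every group and lasted 48 h, with siRNA labelled at 20 uM. The quantity compared is the mean of the si1 and si2 group means minus the siSCR mean, on a log2 scale, so that each siRNA has the same weight whatever its number of libraries. It is called the pooled difference here, and all log2 values are differences of log2(normalized count + 1).

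AKR1A1 is an aldo-keto reductase that uses NADPH to reduce aldehydes, among them glucuronate, and S-nitrosylated coenzyme A. An siRNA lowers its matching transcript, and can also lower transcripts that it matches only in part, so a pair of siRNAs with different sequences is commonly used to separate what follows the target from what follows one sequence. Several of the genes described here belong to sterol synthesis, which is set by a feedback loop. When sterols are plentiful, INSIG proteins hold the transcription factor SREBP2 in the endoplasmic reticulum. When sterols are scarce, SREBP2 is released, cleaved and sent to the nucleus, where it switches on enzymes of the pathway and INSIG1 itself.

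Between 2108546 and 5939514 reads per library fell on genes. Nothing in the labels tells whether libraries of a group came from separate cultures, so the p-values measure the spread between these libraries, which may be technical. The library siSCR 1 stood apart from the rest of its group: mitochondrially encoded transcripts took 12.1% of its reads, against 3.46% to 4.46% in the other siSCR libraries, 6.57% to 11.06% in si1 and 4.59% to 5.12% in si2. Over the groups, the share of mitochondrial reads had a pooled difference of 0.601 percentage points (exact permutation test over 11550 arrangements of the libraries, two-sided, p = 0.741). Without siSCR 1 that difference was 2.62 points and without siSCR 3 it was -0.273. Reads of the library si1 2 covered 11618 genes, against 13154 to 14355 in the others. Of 10 markers of renal epithelium and clear-cell carcinoma, 8 were high enough to be tested, while CA9 was at 0 in every library and NDUFA4L2 at 0 to 0.878. PAX8, a renal transcription factor, stood at 745 to 1149 in siSCR and 711 to 1063 in the knockdown libraries. KRT18, a keratin, was the 1 tested marker that fell (-0.62; limma adjusted p = 0.0425). In bulk RNA, fewer cells that express a gene and less RNA per cell cannot be told apart. The 7 endothelial markers summed to at most 0.840, the 7 fibroblast markers to 25.5 to 52.3 in siSCR and 12.3 to 62.8 with knockdown, and the 8 leukocyte markers to 58.1 to 113 and 33.1 to 88.4. CD68 gave most of the last sum and COL1A1 most of the one before, and CD3E, CD3D, MS4A1, COL1A2 and LUM were at 0 in every library. The other markers of these lists were low: PDGFRB reached 9.17, CD79A 7.48, CD14 2.62, LYZ 2.10 and PTPRC, DCN and PDGFRA 1.77.

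The targeted transcript was lower in every knockdown library than in any control library. AKR1A1 (ENSG00000117448, chromosome 1 of GRCh38, 45550543 to 45570049) stood at 390.4, 256, 200.1 and 242 normalized counts in siSCR 1 to 4. It was at 81.7, 23.6 and 45.1 with si1, and at 56.6, 32.1, 48.3 and 46.1 with si2. The siRNA groups overlapped each other and lay far below the controls. The pooled difference was -2.54 (SE 0.31; limma adjusted p = 0.00393), a 5.81-fold reduction, and an exact permutation test gave p = 0.00294, where 0.000173 is the smallest that 11550 arrangements allow. The siRNAs differed from each other by 0.01 (95% interval -0.81 to 0.84). AKR1A1 kept its call when any 1 library was left out, with a highest adjusted p of 0.0248.

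Which transcripts moved with both siRNAs was asked next. Of 10760 genes tested, 436 were called at a limma adjusted p under 0.05, which is 4.05% of them, and 2432 had an unadjusted p under 0.05. Of the calls, 279 rose (2.59% of genes tested) and 157 fell (1.46%). The median pooled difference of all genes tested was -0.03, and 46.9% of them had a positive value. A called gene had a median absolute difference of 0.99, and 207 called genes differed by at least 1. The count rests on the control libraries. Without siSCR 1 it was 1643, of which 870 were higher and 773 lower, while without siSCR 2, siSCR 3 or siSCR 4 it was 107, 108 and 91. Without a single si2 library it was 209 to 304, with 262 when si2 1 was left out, 209 for si2 2 and 217 for si2 4. A core of 86 genes, 70 higher and 16 lower, kept the call whichever library was left out.

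A pooled call does not require equal effects of the siRNAs, nor a call with each siRNA alone. Of all genes tested, 761 differed between si2 and si1 (7.07%), and of the 436 called in the pooled comparison 113 did so (25.9%). Of these 113 genes, 88 had moved farther with si1 and 25 farther with si2. The share was larger among the falls, with 70 of 157, than among the rises, with 43 of 279. For the other 323 called genes no difference between the siRNAs was called. Every knockdown library lay above every control library for 279 genes (2.59%) and below every control library for 173 (1.61%). Both conditions, a call and this full separation, were met by 189 genes that rose and 60 that fell.

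**Figure D1:**
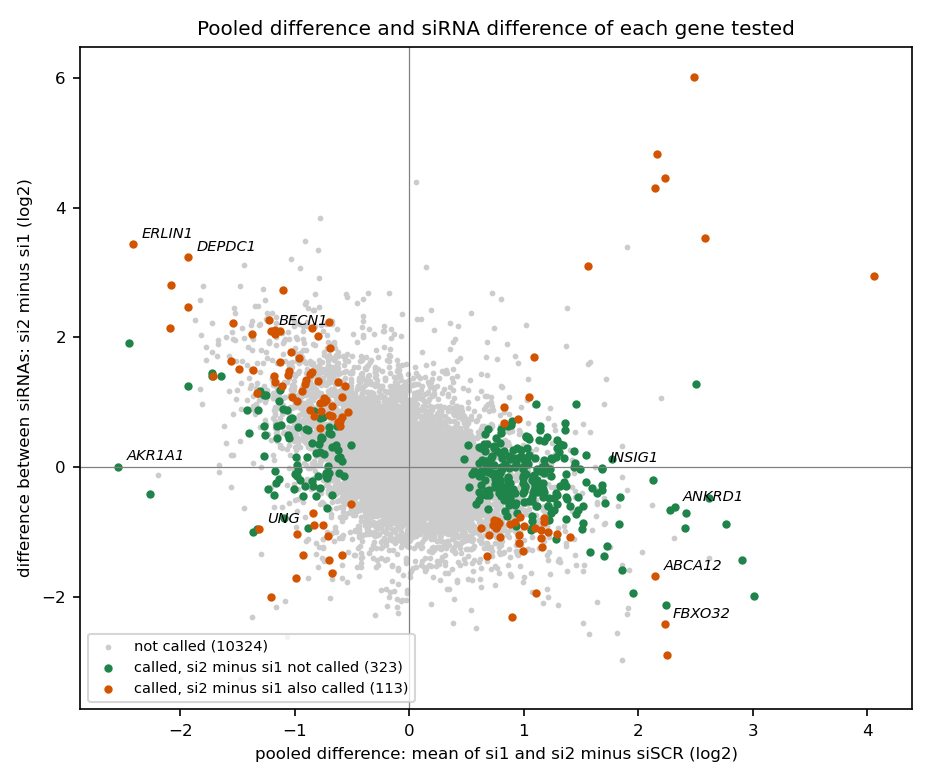
Each point is 1 of 10760 tested genes, with the pooled difference (mean of si1 and si2 minus siSCR, log2) on the x axis and si2 minus si1 (log2) on the y axis. Green points are the 323 called genes without a called siRNA difference, orange points the 113 with one, grey points the rest; AKR1A1 lies at -2.54 on the x axis and 0.01 on the y axis, while ERLIN1 and DEPDC1 lie above 3 on the y axis.

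The gene lists with the most rises were squalene to cholesterol and sterol sensing, uptake and efflux, with 5 each. Fatty acid synthesis and activation and TGF-beta response and matrix held 4 each. The lists were chosen with earlier results of these data known, so their shares describe these genes and are no test. In the 3 lists of sterol genes together (mevalonate pathway, squalene to cholesterol, and sterol sensing, uptake and efflux), 12 of 37 tested genes rose and 0 fell. That is 32.4%, where 2.59% of all genes tested rose. Another 22 had positive values that were not called, and the median pooled difference was 0.54, against -0.03 over all genes. Both siRNAs had positive medians, 0.50 for si1 and 0.60 for si2. In 13 of the 37 genes (35.1%) every knockdown library was above every control, which held for 2.59% of all genes tested. Of the 12 rises, 8 kept their call whichever library was left out. Between 8 and 15 of the 37 genes rose in those fits, where 75 to 870 of all genes tested rose. Between si2 and si1, 2 of the 37 differed, where 7.07% of all genes tested did.

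Early in the pathway, 2 of 9 tested genes of the mevalonate pathway rose. HMGCS1, which condenses acetyl groups into HMG-CoA, stood at 85.6, 98.3, 128 and 82.5 in siSCR, at 283, 236 and 279.5 with si1 and at 290.1, 249, 378 and 310.0 with si2. Every knockdown value was well above the highest control, and the siRNA groups overlapped. Its pooled difference was 1.54 (SE 0.17; limma adjusted p = 0.00383), with 1.44 for si1 and 1.63 for si2. Exons of HMGCS1 share 15.0% of their bases with the antisense transcript AC114947.2, and whether the counting used strand is not given in the sources used here. IDI1, an isomerase that makes the building block for chain growth, was at 36.3 to 41.1 in siSCR, at 58.0, 118 and 48.1 with si1 and at 88.4 to 98.5 with si2. It rose by 1.05 (SE 0.21; limma adjusted p = 0.0246), a call that was lost without siSCR 2, siSCR 3, siSCR 4 or si2 4 (adjusted p up to 0.0893). Its exons share 14.8% of their bases with IDI2-AS1 on the other strand. MVK, the mevalonate kinase, had a pooled difference of 0.79 that did not pass the test (limma adjusted p = 0.344). GGPS1, at the branch to protein prenylation, had 0.54 (limma adjusted p = 0.0537), with every knockdown library above every control.

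From squalene to cholesterol, 5 of 13 tested genes rose: FDFT1, SQLE, LSS, MSMO1 and DHCR7. MSMO1, which removes methyl groups from the sterol ring, was at 131, 78.0, 64.1 and 78.4 in siSCR, at 265, 358 and 292 with si1 and at 227, 282, 256 and 232 with si2. The knockdown libraries all lay above siSCR 1, the highest control. Its pooled difference was 1.68 (SE 0.19; limma adjusted p = 0.00383). SQLE, which oxidizes squalene in a rate-limiting step, was at 334, 212, 114 and 161 in siSCR, at 688, 770.2 and 601 with si1 and at 502 to 525 with si2. It rose by 1.64 (SE 0.24; limma adjusted p = 0.00702). DHCR7, which carries out a last step of cholesterol synthesis, was at 52.0, 53.4, 66.7 and 37.7 in siSCR, at 177, 167 and 164 with si1 and at 109, 80.3, 203 and 131 with si2. The si2 libraries spread more than the si1 libraries, and the pooled difference was 1.47 (SE 0.24; limma adjusted p = 0.00922). LSS, which closes the sterol rings, rose by 1.24 (SE 0.28; limma adjusted p = 0.0335) from 12.6 to 39.2 in siSCR to 46.6 to 84.0 in the knockdown libraries. Its call was lost without siSCR 2, siSCR 4 or any 1 si2 library (adjusted p up to 0.118). FDFT1, which makes squalene, rose by 0.82 with each siRNA (SE of the pooled value 0.14; limma adjusted p = 0.0128); it stands outside the rule for named genes and completes the count.

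**Figure D2:**
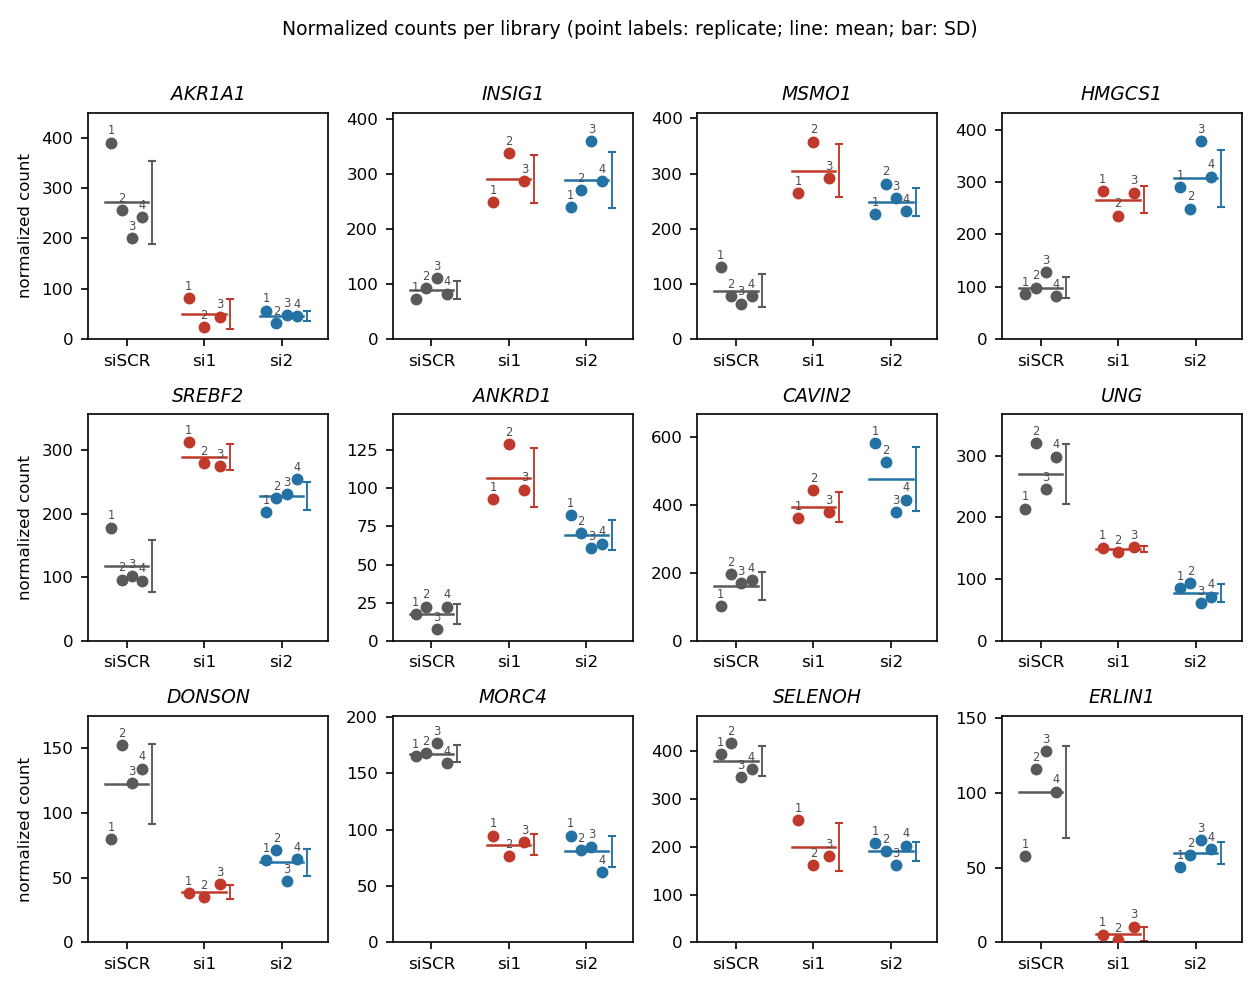
Normalized counts (y axis, linear, from 0) of 12 named genes in each library, grouped by siRNA on the x axis, with replicate numbers beside the points, the group mean as a line and the SD as a bar. INSIG1, MSMO1, HMGCS1, SREBF2, ANKRD1 and CAVIN2 were higher in every knockdown library than in any control, while AKR1A1, UNG, DONSON, MORC4 and SELENOH were lower in each; ERLIN1 was near 0 with si1 only.

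Among genes that sense, take up or move sterols, 5 of 15 tested rose, among them SREBF2, INSIG1, NPC2 and ABCA1. INSIG1, the sterol-responsive brake on SREBP processing, was at 72.2, 92.9, 111 and 82.5 in siSCR, at 249, 337 and 286 with si1 and at 239, 269.7, 359 and 287 with si2. The lowest knockdown library stood above the highest control, and the siRNA groups covered the same range. INSIG1 rose by 1.68 (SE 0.17; limma adjusted p = 0.00383), with 1.69 for si1 and 1.68 for si2. SREBF2, which encodes SREBP2, was at 178, 96.1, 102 and 94.7 in siSCR, at 312, 279 and 275 with si1 and at 202, 224, 231 and 254 with si2. It rose by 1.17 (SE 0.19; limma adjusted p = 0.00894), and siSCR 1 was the control nearest to the knockdown libraries. NPC2, which hands cholesterol out of the lysosome, rose by 1.07 (SE 0.14; limma adjusted p = 0.00527) from 403 to 547 in siSCR to 804 to 1106 in the knockdown libraries. ABCA1, an exporter of cholesterol that is also outside the naming rule, rose by 0.92 (SE 0.19; limma adjusted p = 0.0259). The factors that process SREBP2 did not pass the test: MBTPS1 had 0.04, MBTPS2 0.01 and SCAP 0.08. The value of SCAP averaged 0.49 for si1 and -0.32 for si2, and the siRNAs differed (limma adjusted p = 0.0329).

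Promoter windows from RefSeq (GRCh38.p14, 250 bases before to 50 after the start) were searched on both strands for a sterol response element-like motif, TCACNCCAC, and for the NF-Y box, CCAAT, a motif often found beside it. Windows were at hand for 9 of the 12 sterol genes that rose. The first motif was in 1 of these 9 windows, that of SREBF2, and in 1.08% of 8774 windows of genes tested and 1.13% of all 35116 windows. The NF-Y box was in 7 of the 9 (HMGCS1, LSS, MSMO1, DHCR7, SREBF2, INSIG1 and NPC2), in 17 of 31 windows of tested sterol genes and in 37.4% of windows of genes tested. A match describes letters only. The SREBF2 window is shown because it is the 1 window of a risen sterol gene that holds both, from chr22:41832855-41833078 on the plus strand, up to the first annotated start, with both motifs in capitals (the NF-Y box as its reverse complement).
SREBF2: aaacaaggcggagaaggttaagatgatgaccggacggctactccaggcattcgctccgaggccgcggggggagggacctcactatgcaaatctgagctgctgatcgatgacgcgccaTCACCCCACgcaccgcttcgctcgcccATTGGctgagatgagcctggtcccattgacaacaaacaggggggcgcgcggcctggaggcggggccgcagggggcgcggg
The first motif begins 133 bases before the RefSeq start of the gene.

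SREBP factors also govern several genes of the list of fatty acid synthesis and activation, which holds PNPLA3 and TMEM97 besides genes of that pathway. Of its 14 tested genes 4 rose (28.6%, where 2.59% of all genes tested rose) and 0 fell. The other 10 were not called, 3 of them with negative values (ELOVL1 -0.49, TMEM97 -0.26 and ACSL4 -0.19), and the median was 0.58. The siRNAs differed for 3 genes of the list, SCD, ACSL3 and ACSL4, none of which was called in the pooled comparison. ACSS2, which makes acetyl-CoA from acetate, was low throughout, at 4.20, 4.27, 7.85 and 10.2 in siSCR, at 28.1, 43.0 and 31.6 with si1 and at 16.8, 14.4, 20.0 and 21.8 with si2. It had the largest difference of the list, 1.83 (SE 0.24; limma adjusted p = 0.00527). ACLY, which makes cytosolic acetyl-CoA from citrate, was at 892 to 929 in siSCR, at 1335, 1841 and 1626 with si1 and at 1420.5 to 1982 with si2. The controls were within a narrow range and the knockdown libraries all above it, with a rise of 0.80 (SE 0.14; limma adjusted p = 0.0158). PNPLA3, a lipid droplet acyltransferase and lipase, rose by 1.18 (SE 0.25; limma adjusted p = 0.0291), and ELOVL5, a fatty acid elongase, by 0.61 (SE 0.14; limma adjusted p = 0.0365). Of the 4, ACSS2 alone kept its call whichever library was left out. The call of ACLY was lost without siSCR 2, siSCR 3 or siSCR 4 (limma adjusted p up to 0.0705). PNPLA3 lost its call without each of these controls, and without si1 3, si2 1, si2 2 or si2 4 (limma adjusted p up to 0.101). ELOVL5 lost its call without any 1 library other than siSCR 1 or si1 2 (limma adjusted p up to 0.137). FASN, the fatty acid synthase, had 0.55 (limma adjusted p = 0.0779) with every knockdown library above every control.

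In glycerolipid synthesis and storage 2 of 11 tested genes rose and 2 fell (18.2% each way, where 2.59% of all genes tested rose and 1.46% fell), and the median was -0.05. LPIN1, a phosphatidate phosphatase, was at 45.8 to 64.6 in siSCR, at 147 to 159 with si1 and at 91.5 to 146 with si2, and rose by 1.29 (SE 0.16; limma adjusted p = 0.00503). The other 3 calls of the list had larger values with si1. GPAM, which adds the first acyl chain to glycerol phosphate, was at 22.7 to 55.6 in siSCR, at 6.01 to 13.9 with si1 and at 34.2 to 41.7 with si2. Its pooled value of -1.13 combined -2.18 for si1 with -0.08 for si2, and the siRNAs differed (limma adjusted p = 0.00550). AGPAT3, the next acyltransferase, had -1.57 for si1 and -0.23 for si2, and MGLL, a monoglyceride lipase that rose, had 1.09 and 0.16. The pooled calls of GPAM, AGPAT3 and MGLL were lost without siSCR 2, siSCR 3 or siSCR 4 (limma adjusted p up to 0.154). GPAM also lost its call without si1 1, si1 3 or any 1 si2 library.

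Besides sterol enzymes, the 10 largest rises named by rule held SPP1, CAVIN2, DCLK1, FNIP2 and PPIP5K2. These were chosen among genes whose knockdown libraries were all above the controls and whose siRNAs did not differ, so their separation is no finding. CAVIN2, a coat protein of caveolae, was at 103, 197, 169 and 179 in siSCR, at 362, 445 and 379 with si1 and at 583, 526, 380.2 and 416 with si2. Its pooled difference was 1.44 (SE 0.20; limma adjusted p = 0.00578). SPP1, the secreted phosphoprotein osteopontin, was at 1806, 682, 555 and 757 in siSCR, at 2951, 2807 and 2262 with si1 and at 2128, 2522, 2278 and 2220.0 with si2. The control siSCR 1 was more than 1000 counts above the others, and the pooled difference of 1.54 (SE 0.28; limma adjusted p = 0.0153) lost its call without siSCR 2, siSCR 3 or siSCR 4 (adjusted p up to 0.0687). DCLK1, a doublecortin-like kinase, rose by 1.35 (SE 0.21; limma adjusted p = 0.00805) from 115 to 216 in siSCR to 244 to 449.6 with knockdown. FNIP2, a partner of folliculin in lysosomal nutrient signalling, rose by 1.52 (SE 0.25; limma adjusted p = 0.00965), and PPIP5K2, a kinase that makes inositol pyrophosphates, by 1.23 (SE 0.20; limma adjusted p = 0.00974). All of these but SPP1 kept their call whichever library was left out. With si2 alone FNIP2 was not called (limma adjusted p = 0.0503).

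The largest rise among the listed genes was ANKRD1, a muscle ankyrin repeat protein known as a target of the YAP coactivator. It stood at 17.6, 22.4, 7.85 and 22.4 in siSCR, at 93.1, 129 and 99.2 with si1 and at 82.3, 70.6, 60.9 and 63.8 with si2. Every si1 library was above every si2 library, and all were far above the controls. The pooled difference was 2.32 (SE 0.26; limma adjusted p = 0.00383), a 4.99-fold rise, and si2 minus si1 was -0.61 (95% interval -1.30 to 0.08), which was not called. The other 13 tested targets and factors of YAP and TEAD were not called, among them CCN1 (0.49) and CCN2 (0.48), and the list's median was 0.32. Called higher was 7.14% of this list, where 2.59% of all genes tested rose. In the list of TGF-beta response and matrix genes 4 of 23 rose (17.4%, where 2.59% of all genes tested rose) and 0 fell. The list's median was 0.05. COL4A1, a basement membrane collagen chain, was at 284 to 379 in siSCR, at 575, 759 and 708 with si1 and at 673 to 856 with si2, a rise of 1.05 (SE 0.15; limma adjusted p = 0.00578). ITGA1, a collagen receptor subunit, rose by 1.51 (SE 0.22; limma adjusted p = 0.00676). COL4A2, the partner chain of COL4A1, rose by 0.74 (limma adjusted p = 0.0285) and THBS1, a matrix glycoprotein, by 0.84 (limma adjusted p = 0.0324). Both calls were lost without siSCR 2, siSCR 3 or siSCR 4 (limma adjusted p up to 0.118). COL4A2 also lost its call without si1 3, si2 2 or si2 4, and THBS1 without any 1 si2 library.

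The 10 falls named by rule were smaller and rested more on single libraries. MORC4, a nuclear ATPase of the MORC family, was at 165, 168, 177 and 159 in siSCR, at 94.8, 76.3 and 88.7 with si1 and at 94.6, 81.9, 85.1 and 62.2 with si2. The controls spanned a narrow range, and MORC4 fell with each siRNA (-0.95 and -1.05; limma adjusted p of the pooled difference = 0.00656). SELENOH, a nucleolar selenoprotein, was at 393, 417, 345 and 362 in siSCR, at 256, 161 and 180.3 with si1 and at 207, 190.2, 162 and 202 with si2, and fell by 0.97 on the log2 scale (SE 0.16; limma adjusted p = 0.00903). DONSON, which takes part in the start of DNA replication and protects forks, was at 79.8, 152, 123 and 134 in siSCR, at 37.8, 34.7 and 45.1 with si1 and at 63.7, 71.4, 47.3 and 64.3 with si2. The library siSCR 1 was the control nearest to the knockdown libraries, and the pooled difference was -1.27 (SE 0.19; limma adjusted p = 0.00787). With si2 alone DONSON was not called (limma adjusted p = 0.0503). These 3 genes kept their call whichever library was left out, and exons of DONSON share 8.74% of their bases with SON on the other strand.

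The remaining 7 of the 10 falls were CA12, PHF5A, CETN3, TRNP1, NFIA, DPY19L1 and SF3A2, and each lost its call without at least 1 control library. With either siRNA alone, CA12 (limma adjusted p = 0.0802 for si1 and 0.0557 for si2) and SF3A2 (0.0863 and 0.0658) were not called. CETN3 and NFIA were called with si1 but not with si2 alone (limma adjusted p = 0.104 and 0.0876). PHF5A, TRNP1 and DPY19L1 were called with each siRNA. CA12, a membrane carbonic anhydrase, was at 408, 166, 122 and 145 in siSCR, 76.6 to 107 with si1 and 61.7 to 92.4 with si2. Its pooled difference of -1.23 (SE 0.30; limma adjusted p = 0.0436) was called without siSCR 1 or si1 2, and with no other library left out (adjusted p up to 0.109). PHF5A and SF3A2 encode subunits of the splicing complexes that recognise the branch site. PHF5A was at 89.8, 181, 174 and 186 in siSCR, 68.0 to 81.7 with si1 and 53.1 to 75.7 with si2, with -1.16 (SE 0.21; limma adjusted p = 0.0158). SF3A2, whose exons share 12.7% of their bases with PLEKHJ1, had -0.85 (SE 0.21; limma adjusted p = 0.0497). CETN3, a centrin of the centrosome, fell by 1.26 on the log2 scale (SE 0.26; limma adjusted p = 0.0248), and NFIA, a transcription factor, by 1.15 (SE 0.22; limma adjusted p = 0.0213). TRNP1 and DPY19L1 both had -0.98 (limma adjusted p = 0.0120 and 0.0203). PHF5A, CETN3, NFIA and DPY19L1 lost their call without siSCR 2, siSCR 3 or siSCR 4, TRNP1 without siSCR 4, and SF3A2 without any library but siSCR 1 and si2 3. The highest adjusted p of these genes was 0.0626 for TRNP1 and 0.172 for SF3A2. CA12, CETN3 and SF3A2 were also not called without the filter on low values or with all knockdown libraries fitted as 1 group, and NFIA and DPY19L1 not without the filter.

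**Figure D3:**
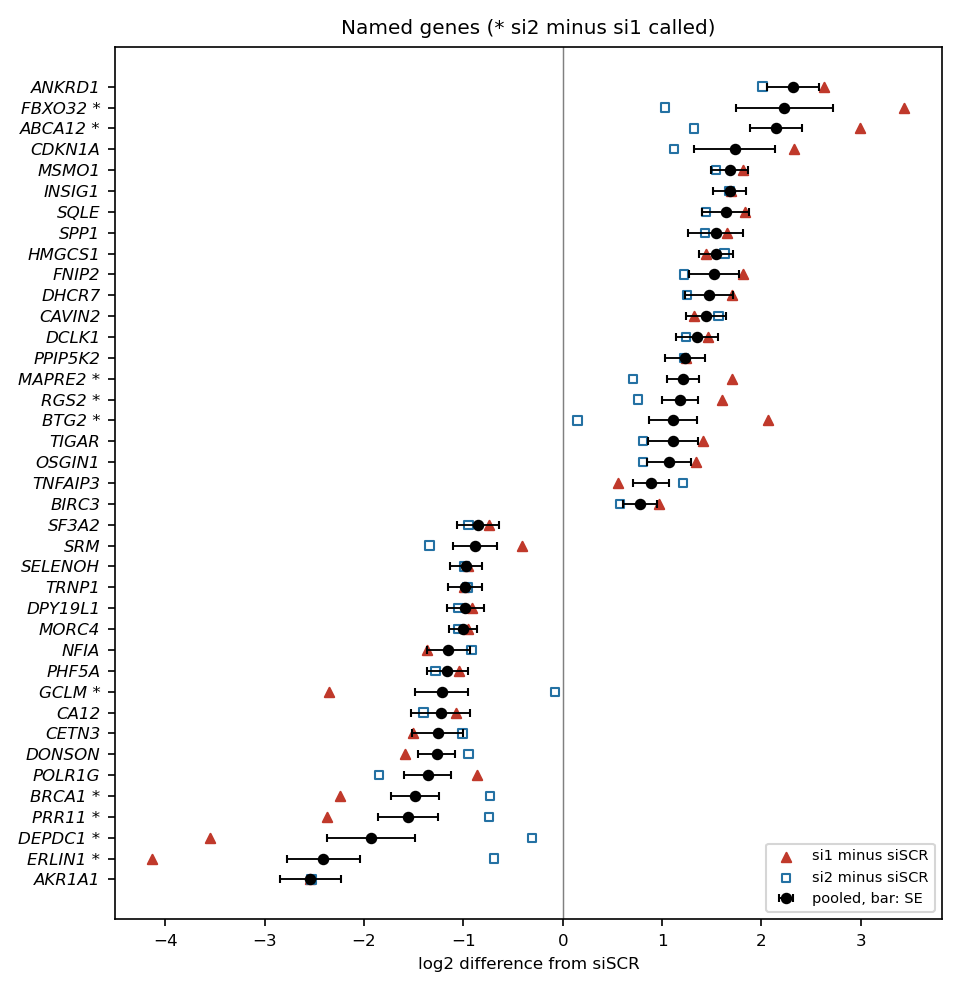
Log2 difference from siSCR (x axis) of named genes (y axis): black points are the pooled difference with its SE, red triangles si1 minus siSCR and blue squares si2 minus siSCR, which share the control libraries. The siRNA values nearly coincide for AKR1A1, INSIG1 and PPIP5K2, and lie far apart for the starred genes, such as ERLIN1 at -4.13 with si1 and -0.69 with si2.

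For 8 further genes named by rule, the pooled call stood for unequal effects, and in each the si1 value was the larger one. ERLIN1, which helps to clear membrane proteins from the endoplasmic reticulum, was at 57.9, 116, 128 and 101 in siSCR, at 5.27, 1.39 and 10.5 with si1 and at 50.4, 58.6, 68.3 and 62.2 with si2. The si2 libraries overlapped siSCR 1, and the si1 libraries were near 0. The pooled difference of -2.41 (SE 0.37; limma adjusted p = 0.00787) averaged -4.13 for si1 and -0.69 for si2 (limma adjusted p = 0.459 for si2 alone). DEPDC1, a gene expressed in dividing cells, was at 58.8, 204, 212 and 216 in siSCR, at 4.39, 18.0 and 21.0 with si1 and at 115 to 134 with si2. It had -3.55 for si1 and -0.31 for si2. BRCA1, which works in homologous recombination, was at 153, 295, 269 and 317 in siSCR, at 53.6, 34.7 and 75.1 with si1 and at 134 to 175 with si2, with -2.24 and -0.73. PRR11, another gene of dividing cells, had -2.37 and -0.74.

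Among the unequal rises, ABCA12, a lipid transporter of the ABC family, was at 65.5, 32.0, 28.8 and 29.5 in siSCR, at 456, 226 and 255 with si1 and at 93.7, 82.7, 102 and 93.3 with si2. All knockdown libraries were above the controls, and the pooled difference of 2.15 (SE 0.26; limma adjusted p = 0.00383) averaged 2.99 and 1.32. FBXO32, a ubiquitin ligase subunit known from muscle wasting, was at 146, 24.6, 14.4 and 21.4 in siSCR, at 429, 354 and 320.1 with si1 and at 59.4 to 83.1 with si2. The si2 libraries all lay below siSCR 1, and its pooled value of 2.23 (SE 0.49; limma adjusted p = 0.0327) averaged 3.44 and 1.03. MAPRE2, which binds growing microtubule ends, had 1.70 for si1 and 0.71 for si2, and RGS2, a brake on G protein signalling, 1.60 and 0.76. ABCA12, MAPRE2, RGS2 and ERLIN1 kept their pooled call whichever library was left out. FBXO32, DEPDC1 and PRR11 lost it without siSCR 2, siSCR 3 or siSCR 4, and BRCA1 without siSCR 4 (limma adjusted p up to 0.122). FBXO32 and DEPDC1 also lost their pooled call without any 1 si2 library, and FBXO32 without si1 1. In a fit that took all 7 knockdown libraries as 1 group, so that a difference between the siRNAs added to the spread, none of these 8 genes was called.

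Cell cycle genes had negative pooled differences throughout, but few passed the test. All 71 tested genes of the S phase and mitosis lists were negative, with a median of -0.97, which was -1.44 for si1 and -0.48 for si2. In all, 7 of the 71 fell (9.86%, where 1.46% of all genes tested fell) and 0 rose. The 6 that fell in S phase were RFC3, MCM5, POLA2 (35.1% of exon bases shared with AP000944.2), MCM4, CDT1 and POLE. MCM5, a subunit of the replicative helicase, was at 147, 375, 389 and 409 in siSCR, at 100.1, 99.9 and 132 with si1 and at 199.9, 156, 176 and 159 with si2. The control siSCR 1 lay below every si2 library, and the pooled value was -1.15 (SE 0.27; limma adjusted p = 0.0372). RFC3, a subunit of the clamp loader, had -1.18 (SE 0.25; limma adjusted p = 0.0270), with -1.88 for si1 and -0.48 for si2. TOP2A, the mitotic topoisomerase and the 1 of 34 mitosis genes that fell, was at 2358, 6856, 6474 and 7565 in siSCR, at 1191, 1596 and 2460.0 with si1 and at 2319 to 2567 with si2. Its pooled value was -1.40 (SE 0.31; limma adjusted p = 0.0328).

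The library siSCR 1 decides these counts. The list score of a library averages the log2 levels of the list's members, after the gene's mean across the 11 libraries has been taken off each. For S phase it was -0.52 in siSCR 1 and 0.79 to 0.85 in the other controls, while si1 had -1.19 to -0.59 and si2 0.04 to 0.19. For mitosis it was -0.78 in siSCR 1 and 1.03 to 1.11 in the other controls, -1.88 to -0.29 in si1 and 0.02 to 0.08 in si2. So siSCR 1 lay below the si2 libraries in both lists. Without siSCR 1, 51 of the 71 genes fell, where 773 of all 10680 genes tested fell, and the medians were -1.22 and -1.50. With siSCR 1 kept and any other library left out, between 0 and 8 fell, and none kept its call throughout. Mitochondrial reads took more of siSCR 1 than of any other library, and the part of that in these results was not tested.

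Of 27 tested p53 targets, CDKN1A, BTG2 and TIGAR rose (11.1%, where 2.59% of all genes tested rose) and 0 fell, and none of these calls held whichever library was left out. The median was 0.64, which was 1.01 for si1 and 0.16 for si2, and 4 of the 27 had negative values. CDKN1A, the p21 inhibitor of cyclin-dependent kinases, was at 4349, 892, 948 and 853 in siSCR, at 9083, 5710.3 and 5846 with si1 and at 2883, 2505, 3479 and 2815 with si2. The si2 libraries were above 3 controls and below siSCR 1, and the pooled difference was 1.73 (SE 0.41; limma adjusted p = 0.0389). BTG2, an antiproliferative gene, had 2.07 for si1 and 0.15 for si2. TIGAR, a fructose bisphosphatase, had 1.41 and 0.81, and its exons share 42.6% of their bases with AC008012.1. The p53 score was 0.40 in siSCR 1 against -0.58 to -0.54 in the other controls, 0.63 to 0.73 in si1 and -0.22 to -0.13 in si2. Without siSCR 1, 17 of the 27 rose, where 870 of all 10680 genes tested rose. With siSCR 1 kept and another library left out, 0 to 3 of the 27 did. Of 16 tested G1 regulators 3 rose (18.8%, where 2.59% of all genes tested rose) and 0 fell. They were CDKN1A again, CDK6 and CDKN2B, another kinase inhibitor (1.26 for si1 and 0.73 for si2, pooled limma adjusted p = 0.0483, up to 0.163 with a library left out). CDKN2B was low, at 9.16 to 20.1 in siSCR, 22.2 to 36.1 with si1 and 16.9 to 31.0 with si2. It was not called with limma-trend or voom. CDK6, a G1 kinase, kept its call throughout: it was at 1769 to 2175 in siSCR, at 3154, 3945 and 3356 with si1 and at 3244 to 5067 with si2, a rise of 0.98 (SE 0.16; limma adjusted p = 0.00902).

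By list score, siSCR 1 did not lie toward the knockdown libraries in the sterol lists except in sensing and uptake. For squalene to cholesterol its score was -0.61, below the other controls at -0.52 to -0.35, and the knockdown libraries were at 0.10 to 0.38. For the mevalonate pathway it was -0.43 within the controls' range of -0.45 to -0.24, with si1 at -0.13 to 0.25 and si2 at 0.24 to 0.35. In sensing, uptake and efflux siSCR 1 was at -0.03 against -0.57 to -0.36 in the other controls, and the knockdown libraries were at -0.03 to 0.37. Single genes of squalene to cholesterol did not all follow the score. SQLE was at 334 in siSCR 1 (other controls 114 to 212) and MSMO1 at 131 (64.1 to 78.4), both toward the knockdown libraries. LSS was at 12.6 in siSCR 1 (other controls 20.4 to 39.2), away from them, and DHCR7 at 52.0, within the range of the others (37.7 to 66.7).

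**Figure D4:**
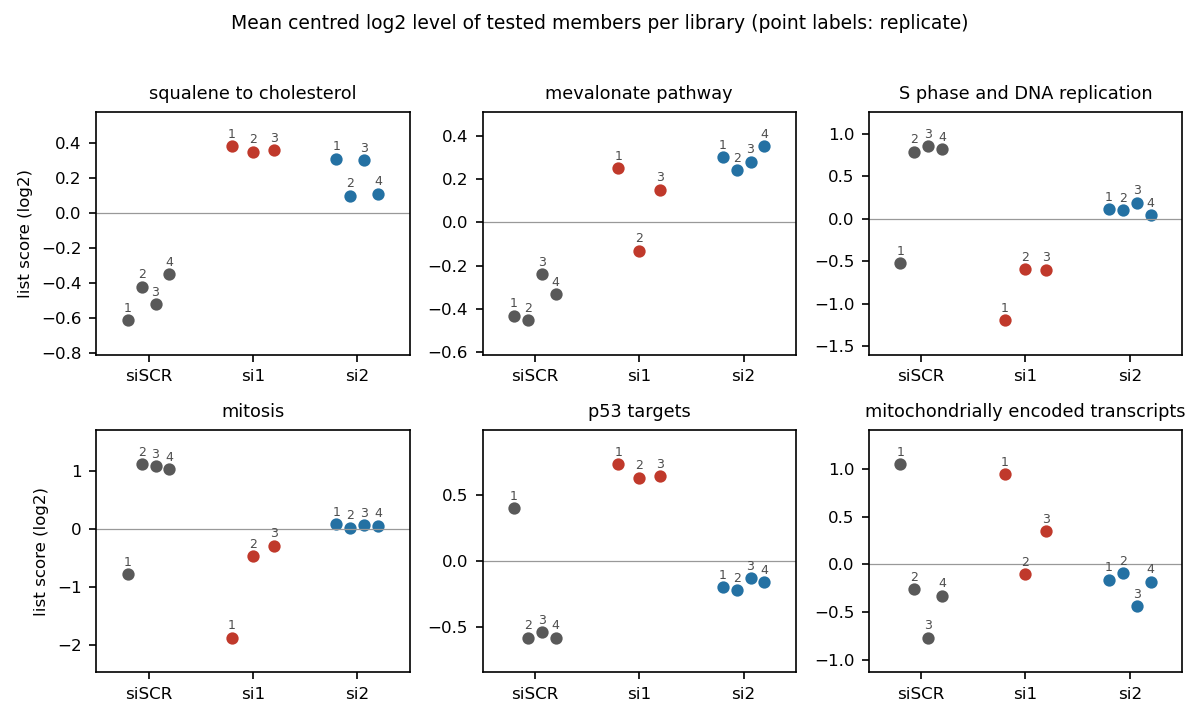
List score (y axis, log2, centred over all libraries) of 6 gene lists in each library, by siRNA group on the x axis, with replicate numbers beside the points. The squalene to cholesterol score separates all 7 knockdown libraries (0.10 to 0.38) from all 4 controls (-0.61 to -0.35), while in S phase, mitosis and p53 targets the library siSCR 1 lies among or beyond the knockdown libraries.

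Genes near the known chemistry of AKR1A1 were looked at in 5 lists, of 6 to 23 tested genes each, beside 4.05% of all genes called. Among 6 tested aldo-keto reductases AKR1A1 alone was called, and the other 5 had positive values, from 0.20 for AKR7A2 to 0.68 for AKR1C1 (limma adjusted p = 0.0972). None of 13 aldehyde dehydrogenases was called; ALDH3B1 and ALDH9A1, the most abundant of them, had 0.10 and -0.11. In glucuronate, polyol and inositol metabolism 1 of 13 genes rose, MIOX, which oxidizes inositol to glucuronate. It was at 79.8, 40.6, 24.9 and 29.5 in siSCR, at 151, 112 and 169.8 with si1 and at 47.8, 60.2, 93.5 and 69.5 with si2. The si2 libraries overlapped the controls, and the pooled difference of 1.28 (SE 0.30; limma adjusted p = 0.0407) was lost without siSCR 2 to 4, si1 1, si1 3 or any 1 si2 library (adjusted p up to 0.147). In S-nitrosothiol and arginine metabolism 1 of 9 rose, ASS1, which joins citrulline and aspartate. ASS1 was at 20.9 to 28.8 in siSCR, at 87.8, 62.4 and 99.2 with si1 and at 33.6 to 42.0 with si2, with a pooled difference of 1.15 (SE 0.16; limma adjusted p = 0.00578) that averaged 1.70 and 0.61. It was not called when all knockdown libraries were fitted as 1 group (limma adjusted p = 0.117). ADH5, the S-nitrosoglutathione reductase, had 0.23 and was not called. Of 23 NRF2 targets and glutathione genes, OSGIN1 rose (1.07, limma adjusted p = 0.0248) and GCLM fell (-1.22, limma adjusted p = 0.0324). OSGIN1, which shares 13.9% of its exon bases with AC009119.2, was low. It was at 5.34 to 12.6 in siSCR, at 19.4 to 26.3 with si1 and at 14.5 to 18.6 with si2. Its call was lost with limma-trend, with voom, without the filter on low values and with all knockdown libraries fitted as 1 group. GCLM, the modifier subunit of the first enzyme of glutathione synthesis, was at 344 to 497 in siSCR, at 103, 38.9 and 113 with si1 and at 315 to 438 with si2, so that its pooled value averaged -2.35 and -0.08. With single libraries left out, OSGIN1 lost its call without siSCR 2, siSCR 4 or si2 2. GCLM lost its call without siSCR 2, siSCR 3, siSCR 4 or any 1 si2 library (limma adjusted p up to 0.117).

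In nucleotide metabolism UNG, the glycosylase that removes uracil from DNA, fell with both siRNAs and more with si2. It was at 214, 320.5, 246 and 298 in siSCR, at 151, 144 and 152 with si1 and at 84.9, 93.1, 60.9 and 71.5 with si2. The groups were in 3 separate ranges. Its pooled difference was -1.31 (SE 0.16; limma adjusted p = 0.00466), with -0.83 for si1 and -1.78 for si2, and the call held whichever library was left out. CTPS1, which makes CTP, fell by 0.98 on the log2 scale (SE 0.20; limma adjusted p = 0.0259), with -0.47 and -1.49. These were the 2 calls among 13 tested genes of pyrimidine synthesis and dUTP removal (15.4% fell, where 1.46% of all genes tested fell). All 13 had negative values (median -0.27). Of 27 tested ribosome biogenesis genes and MYC targets 2 fell (7.41%, where 1.46% of all genes tested fell). POLR1G (-1.36; limma adjusted p = 0.0156) is a subunit of RNA polymerase I whose exons share 43.5% of their bases with ERCC1. SRM (-0.88; limma adjusted p = 0.0490) is the spermidine synthase. POLR1G lost its call without siSCR 2 or siSCR 4 (limma adjusted p up to 0.0714). CTPS1 lost its call without siSCR 2, siSCR 3 or siSCR 4 (limma adjusted p up to 0.103). Of the fits that dropped a single library, only the one lacking siSCR 1 called SRM (limma adjusted p up to 0.167). SRM was also not called with upper-quartile rescaling, without the filter on low values or with all knockdown libraries fitted as 1 group. Without siSCR 1, 8 of the 27 ribosome biogenesis genes and MYC targets fell and 4 of the 13 pyrimidine genes. In that fit 773 of all 10680 genes tested fell. The score of the ribosome biogenesis and MYC target list was -0.19 in siSCR 1 and 0.33 to 0.36 in the other controls. It was -0.00 to 0.06 in si1 and -0.39 to -0.11 in si2.

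The other lists held between 0 and 2 calls each, beside 2.59% of all genes tested that rose and 1.46% that fell. The calls were 3.57% of lysosome and autophagy genes in each direction and 5.00% of ATF4 response genes in each. Rises were 8.33% of interferon-stimulated genes and 20.0% of NF-kB targets. Falls were 5.00% of the endoplasmic reticulum chaperone list, where no gene but ERLIN1 was called, and 3.85% of HIF targets and glycolysis genes. In lysosome and autophagy genes, with 28 tested and a median of 0.44, FNIP2 rose and BECN1, a core autophagy gene, fell. BECN1 was at 292 to 383 in siSCR, at 69.4, 58.3 and 84.2 with si1 and at 285 to 341 with si2. The si2 libraries overlapped the controls, so the pooled value of -1.21 (SE 0.15; limma adjusted p = 0.00383) came from -2.26 for si1 and -0.16 for si2. Exons of BECN1 share 12.4% of their bases with CNTD1 on the other strand. Without siSCR 1, 9 of the 28 rose, where 870 of all 10680 genes tested rose. In interferon-stimulated genes 1 of 12 rose, with a list median of 0.30. TNFAIP3 and BIRC3, inhibitors in NF-kB signalling and cell death, rose by 0.89 and 0.78 among 10 NF-kB targets. TNFAIP3 was low, at 10.5 to 17.1 in siSCR, 17.6 to 29.1 with si1 and 31.1 to 40.1 with si2. It was not called with limma-trend or voom. TRIB3 rose (1.07; limma adjusted p = 0.0259) and SHMT2 fell (-0.61; limma adjusted p = 0.0324) among 20 ATF4 response genes. These calls of TNFAIP3, BIRC3, TRIB3 and SHMT2 were lost without siSCR 2, siSCR 3 or siSCR 4 (limma adjusted p up to 0.121). The call of TNFAIP3 was also lost without si2 2, and that of TRIB3 without si2 4. BIRC3 also lost its call without si2 1, si2 2 or si2 4, and SHMT2 without si1 3, si2 1, si2 2 or si2 4. ERLIN1 (-4.13 for si1 and -0.69 for si2) was the 1 call among 20 genes of the endoplasmic reticulum chaperone list. CA12 was the 1 call among 26 HIF targets and glycolysis genes. No member was called in iron handling (13 tested), the tricarboxylic acid cycle and fatty acid oxidation (25), the nuclear respiratory chain (26), mitochondrially encoded transcripts (13) or the small RNA pathway (13). Their medians were 0.28, 0.04, 0.04, 0.26 and -0.08. Without siSCR 1, 5 of the 13 mitochondrially encoded transcripts rose and 2 of the 13 iron genes. That fit also gave 1 rise in the tricarboxylic acid cycle list and 1 rise and 1 fall in the small RNA list. Over all 10680 genes it tested, 870 rose and 773 fell.

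**Figure D5:**
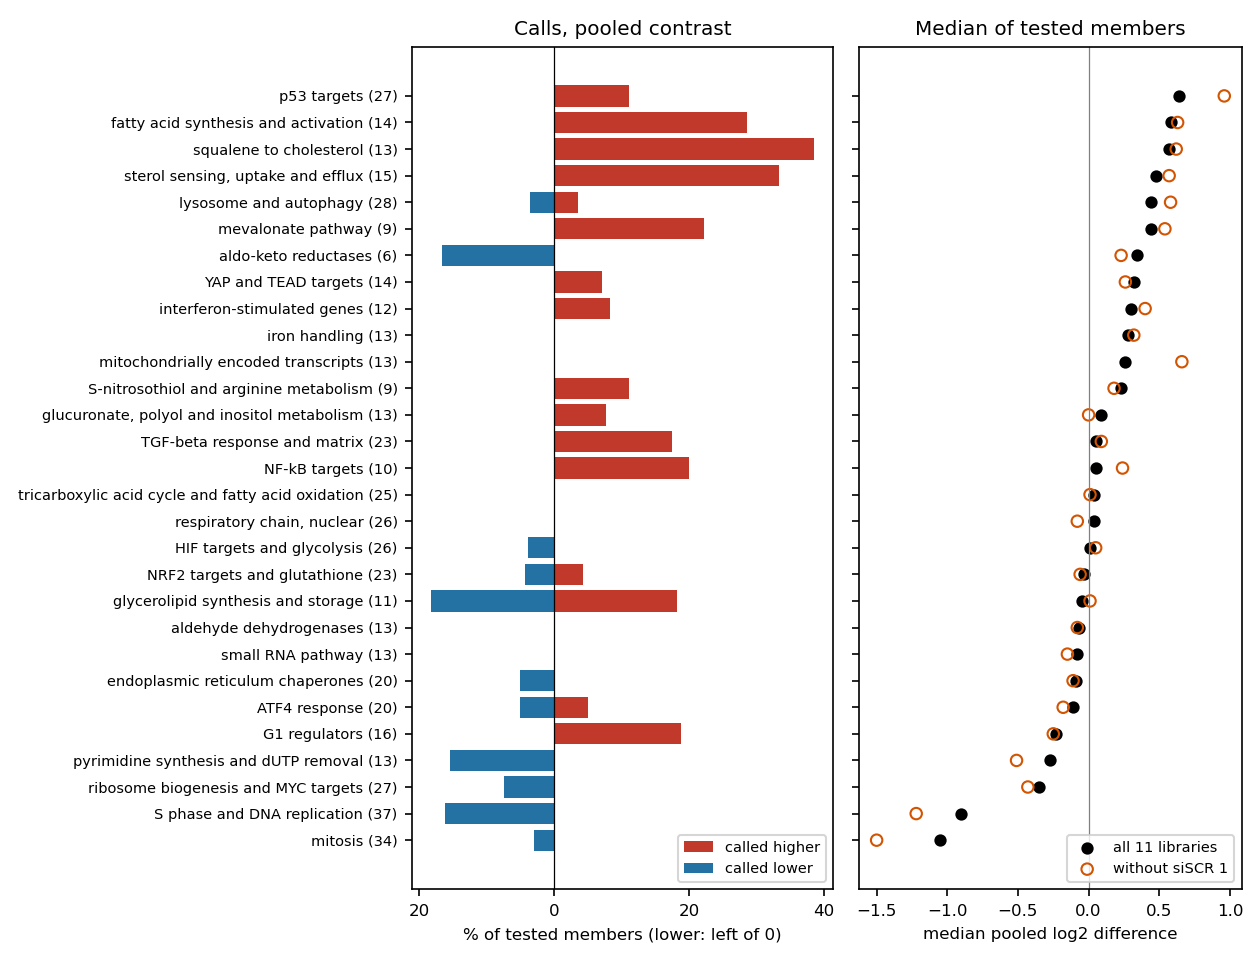
Left, percent of the tested members of each list (number in brackets) called higher, to the right of 0, and called lower, to the left. Right, the list's median pooled log2 difference with all 11 libraries (filled) and without siSCR 1 (open): sterol and fatty acid lists keep similar medians, such as 0.57 and 0.62 for squalene to cholesterol, while S phase goes from -0.90 to -1.22 and mitochondrially encoded transcripts from 0.26 to 0.66.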

How the data were processed

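RNA was sequenced from 11 libraries of 1 cell line. The tools cutadapt, FastQC, STAR, HTSeq and DESeq2 and the build GRCh38 are named per the submitters' processing notes, without versions; annotation and strand setting are not given in the sources used here. For 33080 genes, the deposited tables give log2 values. Their values, and not a header, show the scale to be log2(normalized count + 1): undoing the log2 gave whole reads for 100% of values (tolerance 0.01 read), and median-of-ratios size factors recomputed from these reads were within 0.0458% of the scaling. Depth per library is the sum of these recovered reads, and a gene at few reads has a coarse value.

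Genes with a normalized count of at least 10 in at least 3 libraries were tested with limma 3.58.1 in R 4.3.3 on log2(normalized count + 1), in 1 fit with 3 groups (8 residual degrees of freedom), with Benjamini-Hochberg adjustment over all genes tested. A count model had been planned in case the files held raw counts; since the deposited unit was log2, limma took its place. The scripts were tested on simulated data. All tests were two-sided. The members and gene lists were chosen with earlier results of these data known.

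Named by rule were AKR1A1; the 10 rises and 10 falls ranked by the smaller of their si1 and si2 differences, among called genes with a mean of at least 100, groups that did not overlap and no called siRNA difference; the 4 rises and 4 falls with the largest pooled difference among those with a called siRNA difference; and up to 4 called members of each of 29 lists, or the 2 most abundant where none was called. Some genes that the rule names are not reported here, and they still count in the totals. Of 562 listed genes 559 were found in the tables. Positions are from GENCODE 29. Alternatives were another scaling, filter, pseudocount, variance model, weighting, covariate, the replicate block and each library left out.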

Additional observations from a re-analysis of the deposited data

Results flagged for a closer look

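Single libraries far from the rest of their group were looked for in 60 groups of 4 libraries, those of the genes named by rule and of the mitochondrial share. At the 95% level chance flags about 1 in 20 such groups; 6 were flagged, and 5 of these concerned siSCR 1. In siSCR 1, ABCA12 had 65.5 normalized counts, where the other controls had 28.8 to 32.0. PHF5A had 89.8 in siSCR 1 (other controls 174 to 186), DEPDC1 58.8 (204 to 216) and PRR11 463 (1302 to 1439). The mitochondrial share of reads in siSCR 1 was 12.1% against 3.46% to 4.46%. In si2 3, SF3A2 had 116 normalized counts, with 221 to 222 in the remaining libraries of si2.

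The siRNAs differed by limma's test of si2 minus si1 for 8 genes named by rule, which is how these 8 were chosen. The log2 difference was -2.41 for FBXO32 (95% interval -3.73 to -1.09; adjusted p = 0.0371), -1.67 for ABCA12 (-2.36 to -0.99; adjusted p = 0.0112), -0.99 for MAPRE2 (-1.42 to -0.56; adjusted p = 0.0151) and -0.84 for RGS2 (-1.33 to -0.35; adjusted p = 0.0452). It was 3.44 for ERLIN1 (2.46 to 4.43; adjusted p = 0.00218), 3.24 for DEPDC1 (2.08 to 4.40; adjusted p = 0.00665), 1.63 for PRR11 (0.82 to 2.44; adjusted p = 0.0244) and 1.51 for BRCA1 (0.85 to 2.16; adjusted p = 0.0146).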

How the results depend on the processing

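AKR1A1 kept its direction and its call under every alternative run. The counts moved more. Called genes (higher, lower) were 161 (113, 48) with no filter on low values, 630 (352, 278) with a minimum of 50, 737 (411, 326) with limma-trend, 2785 (1399, 1386) with array weights, 663 (343, 320) with voom on the recovered reads, 134 (113, 21) with equal weight for each library and 961 (530, 431) when the mitochondrial share entered the model. Genes differing between the siRNAs were 496 with no filter and 1783 with array weights. Upper-quartile rescaling gave 460 calls, 69.6% of them higher against 64.0%. Without the libraries numbered 1 the counts were 1417 (735, 682). Leaving out 1 library each gave 91 to 1643 called, 75 to 870 higher, 16 to 773 lower and 355 to 1253 differing between the siRNAs. Leaving out siSCR 1 and si1 2 together, an alternative chosen after seeing the data, gave 2164 (1103, 1061), and 1199 between the siRNAs. The causes were not tested.

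Same-numbered libraries correlated at -0.0317 to 0.394 in their deviations from the group means, and unlike-numbered ones at -0.276 to 0.115. The highest value was that of siSCR 1 and si1 1. Both also had the highest mitochondrial shares of reads (12.14% and 11.06%) and the lowest mitosis scores (-0.78 and -1.88). The main fit did not take the numbers as pairs, and whether same-numbered libraries share a batch was not tested. The replicate block gave 283 calls (193 higher, 90 lower), 256 of them shared with the fit without it, and 496 between the siRNAs.

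Of the 28 genes named by rule besides AKR1A1, 16 kept their call with each library left out. Of the 28, 17 were called with equal weight for each library (FBXO32, ABCA12, MAPRE2, RGS2, CA12, CETN3, SF3A2, ERLIN1, DEPDC1, PRR11 and BRCA1 were not), 21 with no filter (FBXO32, CA12, CETN3, NFIA, DPY19L1, SF3A2 and DEPDC1 were not) and 25 with the replicate block. Over 79 named genes, list members included, 37 calls were lost with equal weight, 34 with no filter and 19 with the block. Among the named genes, signs reversed only in 2 that no fit called: ECHS1 without siSCR 1 (0.05; range -0.16 to 0.05 with 1 library left out) and without siSCR 1 and si1 2 (0.08), and ALDH3B1 without siSCR 3 (-0.01; range -0.01 to 0.20). The median standard error over genes tested was 0.22, and genes that reached 10 normalized counts in fewer than 3 libraries were not tested.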

Other observations

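Of the 436 called genes, 381 were in none of the gene lists. The genes given here were picked after their values were seen, from those that kept their call whichever library was left out. ITGB8, an integrin subunit that activates latent TGF-beta, rose by 2.50 (SE 0.39; limma adjusted p = 0.00805), with 1.86 for si1 and 3.14 for si2. SLIT2 and SLIT3, secreted guidance ligands, rose by 1.34 (SE 0.22; limma adjusted p = 0.0104) and 1.18 (SE 0.17; limma adjusted p = 0.00578). EPHA7, an ephrin receptor, rose by 1.36 (SE 0.23; limma adjusted p = 0.0115), and IGFBP7, a secreted binding protein of growth factors, by 1.29 (SE 0.20; limma adjusted p = 0.00891). SETD7, a lysine methyltransferase, rose by 1.37 (SE 0.16; limma adjusted p = 0.00383), and PTPRU, a receptor phosphatase, had -1.27 (SE 0.21; limma adjusted p = 0.0106). None of these 7 genes was called for si2 minus si1.

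An average of both siRNAs hides genes that moved in opposite directions. There were 4 genes called with each siRNA and with opposite signs, 2 in each direction, and 3 are named here after their values were seen. COMMD8 was at 71.3 to 89.7 normalized counts in siSCR, at 31.6, 18.0 and 22.5 with si1 and at 134 to 165 with si2, and its pooled difference of -0.40 averaged -1.70 and 0.90. RYBP, a Polycomb subunit, averaged 0.78 and -0.88 to -0.05, and THUMPD1, an RNA-binding cofactor of acetylation, 0.60 and -0.91 to -0.15. For each of these 3, si2 minus si1 was called (limma adjusted p = 0.000272 for COMMD8, 0.000602 for RYBP and 0.000656 for THUMPD1).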
